A study of Mus musculus with 48 samples.

Results

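Cytochrome c oxidase, complex IV of the mitochondrial respiratory chain, has several small subunits that mouse tissues build in alternative forms, and the 9 genes for these forms in gastrocnemius muscle are described here across 48 mice given perfluorooctane sulfonate (PFOS). The genes are Cox6a2, Cox7a1 and Cox8b, which encode the forms of contractile muscle, their ubiquitous partners Cox6a1, Cox7a2 and Cox8a, the ubiquitous Cox4i1 with its hypoxia-linked partner Cox4i2, and the Cox7a relative Cox7a2l. They were taken by gene symbol from a table of 54532 genes, and all 9 were among the 15583 genes that had enough counts to be tested. The set was chosen by family membership, with the differences between 10 and 0 mg/kg/day in these same libraries in view. Values of 10 against 0 mg/kg/day are therefore a description of the members. Calls in that contrast mark genes past the threshold of the fit. Neither these calls nor their stability across settings serve as a test of the members.

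PFOS, a persistent fluorinated surfactant, was given by oral gavage for 21 days. At 10 mg/kg/day there were 4 females and 4 males of the hCYP2B6-Tg line, and 4 females and 3 males of the Cyp2b-null line. At 1 mg/kg/day each of these strata held 4 mice, and at 0 mg/kg/day each held 4 except the hCYP2B6-Tg males, with 5. The hCYP2B6-Tg mice carry a transgene of the human drug-metabolizing enzyme CYP2B6, and the Cyp2b-null mice lack mouse Cyp2b genes. The labels give neither the transgene's promoter, nor the strain, nor the age of the mice. RNA was read as 1 library per mouse, with 11571142 to 19921061 counts per library. Tests weigh differences against the variation among mice of a group. Library numbers in the labels rose with dose within each stratum, so handling and dose cannot be told apart. The extraction text of the labels speaks of liver, whereas the tissue field says gastrocnemius. The 10 fast fibre markers summed to 95050 to 172300 CPM (read counts scaled to a common library size) at 10 mg/kg/day and 132300 to 201000 CPM at 0 mg/kg/day. An earlier analysis of these data had set 6 libraries apart, those with at least 40 counts of Glycam1, a gene of lymph node vessels, or at least 10000 of Alb, a liver gene; replicate 2 of the Cyp2b-null males at 0 mg/kg/day, with 224 Alb counts, is not among them. At 10 mg/kg/day these were replicate 1 of the hCYP2B6-Tg females and replicate 3 of each of the other strata; at 1 mg/kg/day, replicate 2 of the Cyp2b-null males; and at 0 mg/kg/day, replicate 4 of the hCYP2B6-Tg females.

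Complex IV passes electrons from cytochrome c to oxygen and pumps protons across the inner mitochondrial membrane. Its catalytic core is encoded in mitochondrial DNA, and the surrounding small subunits are encoded in the nucleus and tune the activity, dimer formation and assembly of the enzyme. Subunit VIa lies at the dimer interface, subunit VIIa takes part in contacts with other complexes, subunit VIII is the smallest, and subunit IV is a site at which adenine nucleotides act on the enzyme. Adult muscle and heart use the muscle forms of VIa, VIIa and VIII in place of, or beside, the ubiquitous forms of liver, fat and most other tissues. Cox4i2 is known from lung and from oxygen-sensing and vascular cells. Cox7a2l, also called Scaf1, is not a standard subunit of the free enzyme but joins complex IV to complex III in supercomplexes.

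Without PFOS the muscle forms Cox6a2 and Cox8b held the upper ranks per kb, and the muscle form Cox7a1 lay below the ubiquitous Cox4i1. Per kb of the deposited gene length, Cox6a2 had 669.3 to 1019 CPM over the 17 mice at 0 mg/kg/day, with a median of 824.2, and Cox8b had 535.1 to 842.8 with a median of 631.1. The ubiquitous Cox4i1 followed at 284.6 to 483.3 CPM per kb (median 324.4), and Cox7a1 came next at 130.4 to 278.3 (median 157.9). Cox7a2 had 90.2 to 131.3 CPM per kb (median 107.5) and Cox7a2l 80.5 to 114.4 (median 93.8). Cox8a, at 21.1 to 38.2 CPM per kb (median 27.0), and Cox6a1, at 17.6 to 29.0 (median 21.2), lay far below their muscle partners. Cox4i2 was the lowest at 0.947 to 4.18 CPM per kb (median 1.78). The ranges of Cox6a2 and Cox8b overlapped, as did those of Cox7a1 and Cox7a2, of Cox7a2 and Cox7a2l, and of Cox8a and Cox6a1, so the levels of these neighbours are not separated across mice. Within a mouse the order per kb did not change: each gene lay above the next in the order in 17 of 17 mice, Cox7a1 above Cox7a2 included. This order rests on the deposited gene lengths. In CPM without lengths, the median of Cox7a1 at 0 mg/kg/day (84.5) lay below those of Cox7a2 (101.5) and Cox7a2l (107.5). Likewise the median CPM of Cox8b (227.2) lay below that of Cox4i1 (502.8). The VIIa pair thus differed from the others in composition. Cox7a1 made up 59.8 ± 2.99% of the Cox7a1 and Cox7a2 transcripts per kb (SD, n = 17), whereas Cox6a2 made up 97.4 ± 0.442% and Cox8b 95.9 ± 0.769% of their pairs.

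The start regions of the VIIa and VIII pairs are shown because their muscle and ubiquitous members differ in CpG content, the dinucleotide that is dense in promoters of many widely expressed genes. RefSeq regions (GRCm38.p6) matched 6 of the 9 members by symbol. The 250 bases before the start annotated by RefSeq are printed on the gene's strand, with each CpG in capitals. RefSeq starts can differ from those of the deposited coordinates, and the regions of Cox7a1 and Cox7a2 reach into the deposited spans of these genes.
Cox7a1: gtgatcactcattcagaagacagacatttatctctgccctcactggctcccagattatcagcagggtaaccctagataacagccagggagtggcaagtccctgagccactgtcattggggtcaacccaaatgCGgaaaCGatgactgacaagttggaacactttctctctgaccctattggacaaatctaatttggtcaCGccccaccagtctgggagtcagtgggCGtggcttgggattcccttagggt
Cox7a2: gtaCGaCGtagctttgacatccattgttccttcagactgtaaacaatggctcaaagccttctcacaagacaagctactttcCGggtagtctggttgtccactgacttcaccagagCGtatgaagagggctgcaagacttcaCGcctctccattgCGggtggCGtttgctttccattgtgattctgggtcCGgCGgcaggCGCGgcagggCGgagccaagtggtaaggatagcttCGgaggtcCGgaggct
Cox8b: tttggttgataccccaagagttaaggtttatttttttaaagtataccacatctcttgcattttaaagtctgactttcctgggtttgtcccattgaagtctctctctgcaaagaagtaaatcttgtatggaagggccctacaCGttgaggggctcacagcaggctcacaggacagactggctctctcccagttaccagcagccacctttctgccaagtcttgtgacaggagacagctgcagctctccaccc
Cox8a: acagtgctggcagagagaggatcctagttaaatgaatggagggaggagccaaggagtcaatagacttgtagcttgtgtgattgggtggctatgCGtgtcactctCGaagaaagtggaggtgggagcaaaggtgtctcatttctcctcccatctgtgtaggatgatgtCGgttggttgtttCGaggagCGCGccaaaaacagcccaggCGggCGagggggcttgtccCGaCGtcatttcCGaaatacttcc
These lie at chr7:30183921-30184170 (plus strand), chr9:79759854-79760103 (minus), chr7:140900447-140900696 (minus) and chr19:7217617-7217866 (minus). Cox7a1 had 4 CpG and Cox8b 1, against 14 in Cox7a2 and 11 in Cox8a, and the median over 32851 such regions was 6. The matched region of Cox6a1 had 26 CpG and that of Cox7a2l 13. Of 7 motifs searched on both strands, the E-box CAGCTG was found in Cox8b from 19 to 14 bases before the start, and 13% of all regions held it. GGGCGG was found in Cox7a2, Cox7a2l and Cox6a1, and 32.7% of all regions held it. GCGCANGCG, the letters bound by NRF1, a regulator of respiratory chain genes, was found in Cox6a1 (5.16% of all regions), which also held CCGGAAG (6.91%). No match to AAGGTCA (4.08% of all regions), TATAAA (12.4%) or the MEF2 motif (1.69%) was found in the 6 regions, and Cox7a1 and Cox8a held none of the 7; these letters being absent from a window says nothing about the factors.

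Among the muscle forms, Cox7a1 was the member that lay furthest below the controls at 10 mg/kg/day. Cox7a1 (ENSMUSG00000074218, chromosome 7, 30184144 to 30186078, GRCm38, plus strand) had 16.6 to 70.9 CPM at 10 mg/kg/day, with a median of 34.3 (n = 15), and 69.8 to 148.9 CPM at 0 mg/kg/day, with a median of 84.5 (n = 17). Of the 15 mice at 10 mg/kg/day, 14 lay below the lowest of the 17 controls. In hCYP2B6-Tg females the values were 35.7, 34.3, 51.7 and 34.2 CPM at 10 mg/kg/day, and 74.8, 84.6, 87.2 and 81.1 CPM at 0. In hCYP2B6-Tg males they were 51.7, 33.3, 21.3 and 70.9 CPM at 10 mg/kg/day, and 85.0, 99.0, 69.8, 116.9 and 76.0 CPM at 0. The 70.9 CPM of the hCYP2B6-Tg male replicate 4 at 10 mg/kg/day is the value that overlapped the controls. In Cyp2b-null females the values were 29.4, 37.0, 16.6 and 57.4 CPM at 10 mg/kg/day, and 70.9, 149, 106 and 79.2 CPM at 0. In Cyp2b-null males they were 32.6, 43.2 and 24.0 CPM at 10 mg/kg/day, and 69.8, 75.3, 110 and 84.5 CPM at 0. The groups did not overlap in 3 of the 4 strata. The log2 fold change, averaged over strata, was -1.24 ± 0.14 (standard error, edgeR), with -1.07 ± 0.28 in hCYP2B6-Tg females, -1.02 ± 0.27 in hCYP2B6-Tg males, -1.53 ± 0.28 in Cyp2b-null females and -1.35 ± 0.31 in Cyp2b-null males.

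Cox8b (ENSMUSG00000025488, chromosome 7, 140898945 to 140900446, minus strand), whose human counterpart is not functional, had 126.3 to 222.3 CPM at 10 mg/kg/day (median 177.5) and 192.7 to 303.4 CPM at 0 mg/kg/day (median 227.2). Here 10 of the 15 mice lay below every control. The groups separated only in Cyp2b-null males, at 158.9 to 205.6 CPM at the high dose against 210.8 to 290.4 CPM in controls. For this and the other members, the share of all tested genes that separate in a single stratum was not computed. Nor was the share with as many mice beyond every control, so these counts are description only. The averaged log2 fold change of Cox8b was -0.43 ± 0.08. Cox6a2 (ENSMUSG00000030785, chromosome 7, 128205435 to 128206387, minus strand) had 465.1 to 651.4 CPM at 10 mg/kg/day (median 576.8) and 455.1 to 693.2 CPM at 0 mg/kg/day (median 560.4). No mouse at 10 mg/kg/day was outside the range of the controls, and the log2 fold change was 0.03 ± 0.06. The 3 muscle forms therefore did not share one direction: Cox7a1 and Cox8b were called lower, while Cox6a2 was not called, except with unscaled library totals, where it was called higher (0.25).

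**Figure D1:**
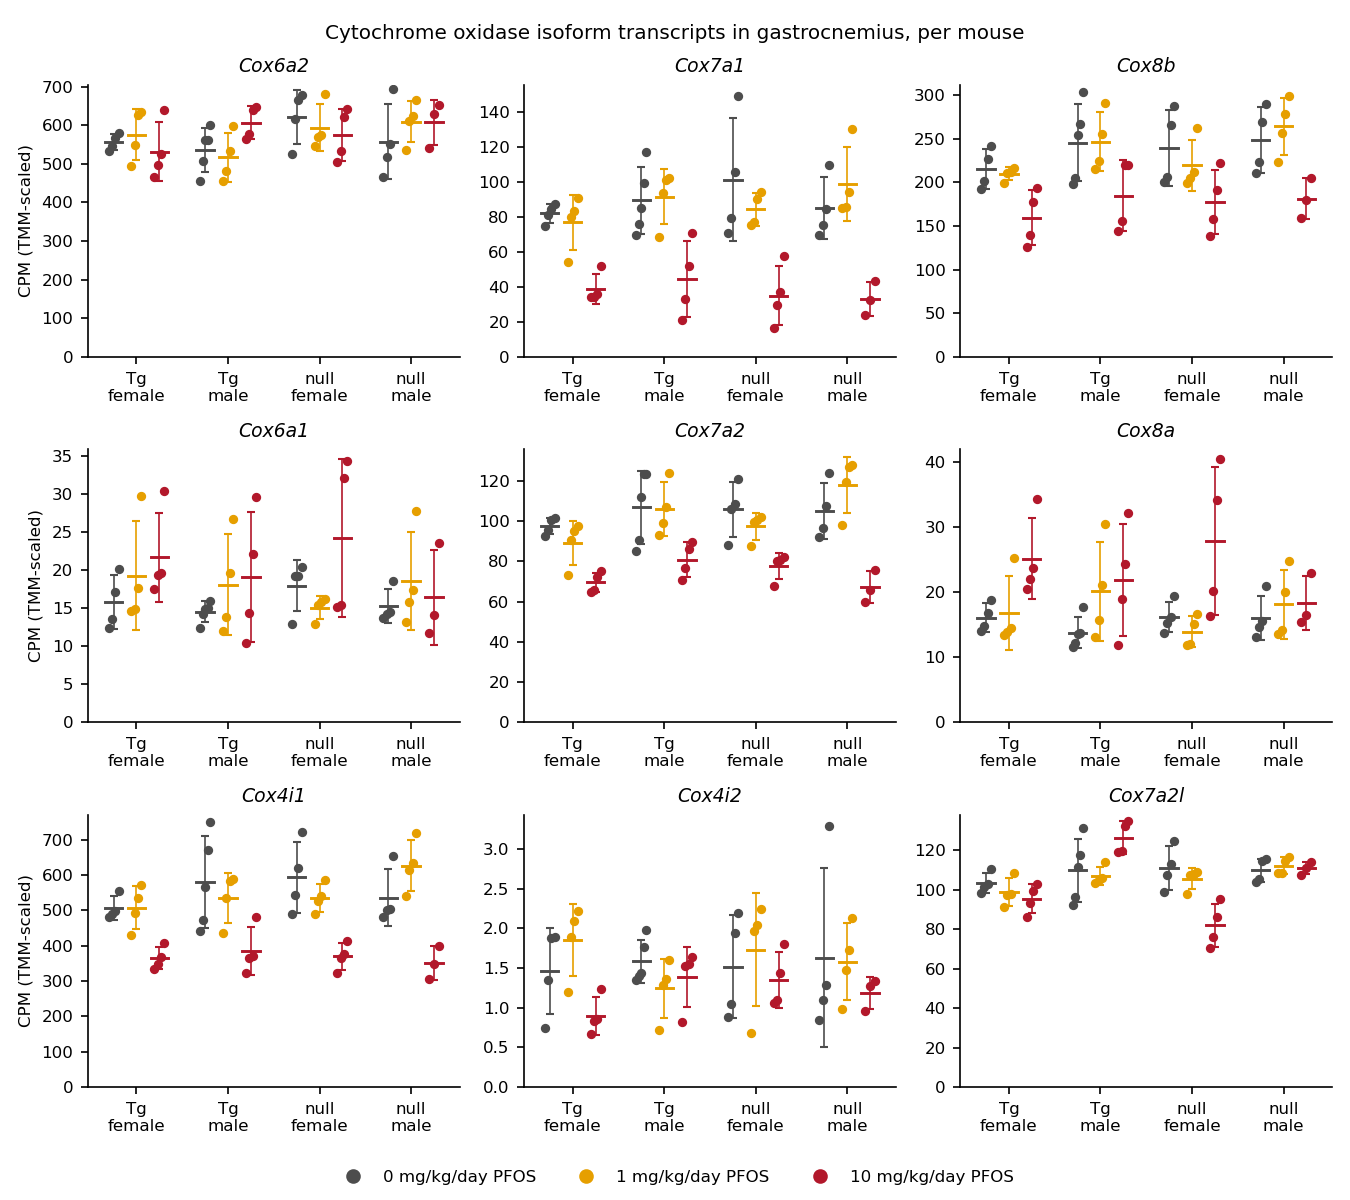
Each point is the CPM of 1 mouse, with the group mean (line) and SD (bar), for the 9 genes in hCYP2B6-Tg (Tg) and Cyp2b-null (null) females and males at 0, 1 and 10 mg/kg/day. Cox7a1 lies at 16.6 to 70.9 CPM at 10 mg/kg/day and at 69.8 to 148.9 CPM at 0, whereas Cox6a2 overlaps at all doses.

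The ubiquitous forms also split. Cox7a2 (ENSMUSG00000032330, chromosome 9, 79755361 to 79759878, minus strand) had 59.9 to 89.6 CPM at 10 mg/kg/day (median 75.1) and 85.1 to 124 CPM at 0 mg/kg/day (median 101.5). Its averaged log2 fold change was -0.50 ± 0.06, and 13 of 15 mice lay below every control. Cox4i1 (ENSMUSG00000031818, chromosome 8, 120668222 to 120674207, plus strand), whose product is needed for assembly of the enzyme, had 305.4 to 480.5 CPM at 10 mg/kg/day (median 366.3) and 441.1 to 749.1 CPM at 0 mg/kg/day (median 502.8). Its log2 fold change was -0.59 ± 0.07, and 14 of 15 mice lay below every control. Cox4i1, Cox7a1 and Cox7a2 were each without overlap between 10 and 0 mg/kg/day in 3 of the 4 strata, all but the hCYP2B6-Tg males. Of all genes tested, 5.31% were lower without overlap in at least 3 strata.

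Cox8a and Cox6a1 lay in the opposite direction. Cox8a (ENSMUSG00000035885, chromosome 19, 7215158 to 7217616, minus strand) had 11.8 to 40.4 CPM at 10 mg/kg/day (median 21.9) and 11.5 to 20.8 CPM at 0 mg/kg/day (median 14.7). In hCYP2B6-Tg females its values were 20.5, 21.9, 34.3 and 23.7 CPM at 10 mg/kg/day, all above the 14.7, 13.9, 16.7 and 18.8 CPM at 0. In hCYP2B6-Tg males they were 11.8, 32.1, 24.3 and 18.9 CPM at 10 mg/kg/day and 13.5, 12.1, 11.5, 17.6 and 13.7 CPM at 0. Cyp2b-null females had 40.4, 20.2, 34.1 and 16.3 CPM at 10 mg/kg/day and 15.2, 19.3, 13.7 and 16.2 CPM at 0. Cyp2b-null males had 16.5, 15.3 and 22.9 CPM at 10 mg/kg/day and 14.5, 15.6, 20.8 and 13.0 CPM at 0. The groups overlapped in 3 of the 4 strata, and 8 of 15 mice at 10 mg/kg/day exceeded every control. Such counts again have no share of all tested genes beside them. The averaged log2 fold change of Cox8a was 0.58 ± 0.13. Cox6a1 (ENSMUSG00000041697, chromosome 5, 115345642 to 115348981, minus strand) had 10.3 to 34.3 CPM at 10 mg/kg/day (median 19.3) and 12.3 to 20.3 CPM at 0 mg/kg/day (median 14.9). Its log2 fold change was 0.35 ± 0.15, its groups overlapped in all 4 strata, 6 of 15 mice exceeded every control and 2 lay below every control.

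Cox6a1 and Cox8a were high in the same mice, and most of these mice had much RNA of fat cells. The log2 CPM of both genes followed each other with a Pearson r of 0.90 over the 48 libraries, and of 0.93 after group means were removed; the libraries share the PFOS contrast and scaling, and no test was made. White adipocyte markers, 8 in number, summed to 611.2 to 2805 CPM at 10 mg/kg/day (median 1184) and 341.6 to 851.9 CPM at 0 mg/kg/day (median 567.9), and 7 of the 8 were called higher, where 25% of all tested genes were. These calls, and the median log2 fold change of the 8, 2.42, are of the contrast averaged over strata. By stratum, 5 were called higher in hCYP2B6-Tg males (7.92% of all tested genes) and 5 in Cyp2b-null females (5.83%). In hCYP2B6-Tg females 1 was called higher (14.2%), and in Cyp2b-null males 0 were (7.45%). The 4 libraries with the most Cox8a were Cyp2b-null female replicate 1 (40.4 CPM), hCYP2B6-Tg female replicate 3 (34.3 CPM), Cyp2b-null female replicate 3 (34.1 CPM) and hCYP2B6-Tg male replicate 2 (32.1 CPM), all at 10 mg/kg/day. Their white adipocyte sums were, in the same order, 2262, 2805, 1606 and 2318 CPM. At 1 mg/kg/day, replicate 1 of the hCYP2B6-Tg males had 30.4 CPM of Cox8a with a sum of 1579 CPM, and replicate 1 of the hCYP2B6-Tg females had 25.2 CPM with a sum of 2111 CPM. A library without such a sum was replicate 2 of the Cyp2b-null males at 1 mg/kg/day, with 24.8 CPM of Cox8a, 27.8 CPM of Cox6a1, a sum of 363.8 CPM and 27859 counts of Alb. Other libraries had high sums with less Cox8a. At 10 mg/kg/day, hCYP2B6-Tg female replicate 2 had a sum of 1702 CPM with 21.9 CPM of Cox8a. Cyp2b-null male replicate 3 had 1676 CPM with 22.9 CPM. At 1 mg/kg/day, hCYP2B6-Tg female replicates 2 and 3 had 1012 and 926.6 CPM with 14.49 and 13.35 CPM, inside the control range. Brown adipocyte markers, 5 in number, summed to 0.45 to 10.8 CPM at 10 mg/kg/day and 0.439 to 4.46 CPM at 0 mg/kg/day. Of the 4 that were tested, none was called higher (25% of all tested genes) and 1 was called lower (22.5%) in the averaged contrast. By stratum, 1 was called higher in hCYP2B6-Tg males (7.92%). One stratum of each line had 1 called lower, hCYP2B6-Tg females (13.5%) and Cyp2b-null females (6.87%), and Cyp2b-null males had no call. The counts that follow are of Ucp1 and Elovl3 only, which were named after their values were seen. Ucp1, the uncoupling protein of brown fat, had 0 counts in 11 of 15 libraries at 10 mg/kg/day and in 15 of 17 at 0 mg/kg/day, with at most 47 and 11 counts. Elovl3 had 0 counts in 0 of 15 libraries at 10 mg/kg/day and in 9 of 17 at 0 mg/kg/day, with at most 23 and 3 counts. The part of these other cells in the values of Cox6a1 and Cox8a was not tested, and in whole tissue more cells of a type and more RNA per cell cannot be told apart.

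**Figure D2:**
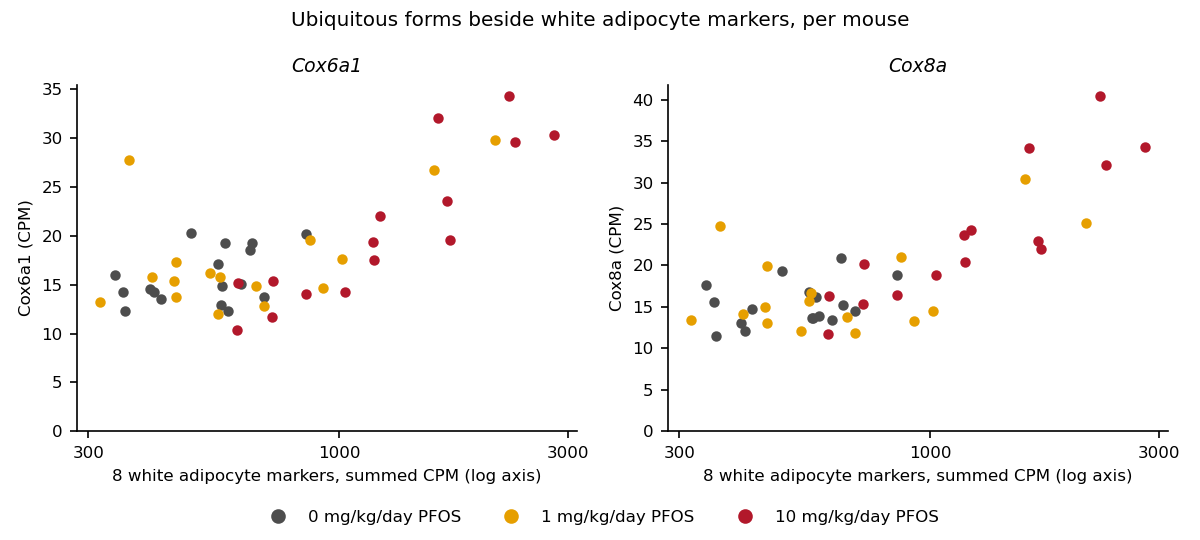
Each point is 1 mouse, with the summed CPM of 8 white adipocyte markers on a log axis and the CPM of Cox6a1 (left) or Cox8a (right), coloured by dose (0, 1 and 10 mg/kg/day). The 6 mice with the most Cox8a have sums of 1579 to 2805 CPM, and 1 mouse at 1 mg/kg/day lies high in both genes with a sum of 363.8 CPM.

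Cox4i2 (ENSMUSG00000009876, chromosome 2, 152754173 to 152765037, plus strand) was sparsely counted, with 8 to 52 counts per library. It had 0.673 to 1.8 CPM at 10 mg/kg/day (median 1.23) and 0.746 to 3.3 CPM at 0 mg/kg/day (median 1.4), and the groups overlapped in all 4 strata. Its log2 fold change was -0.38 ± 0.19 and was not called. Mural cells of vessels, in which Cox4i2 is known, gave a marker sum of 637.9 to 812.1 CPM at 10 mg/kg/day and 504.7 to 940.7 CPM at 0 mg/kg/day. Of the 11 mural markers, 1 was called higher, Myh11 (0.47 ± 0.18), and 2 lower, Rgs5 (-0.28 ± 0.08) and Higd1b (-0.39 ± 0.14), where 47.5% of all tested genes were called in either direction. Of 5 genes reported to regulate Cox4i2, 1 was called higher, Rbpj (0.32 ± 0.05), and 3 lower, Cxxc5 (-0.72 ± 0.13), Chchd2 (-0.37 ± 0.06) and Lonp1 (-0.25 ± 0.05). Hif1a, the oxygen-regulated factor, had a log2 fold change of 0.0091 ± 0.049 and was not called.

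Counted together over the averaged contrast of the high dose with controls, 4 of the 9 members were called lower, where 22.5% of all tested genes were called lower, and 2 were called higher, where 25% of all tested genes were. The median log2 fold change of the 9 was -0.38, and that of all tested genes was 0.036. Of all calls 52.6% were higher, against 82% with unscaled library totals, which moved the median of all genes by 0.219; Cox6a2 and Cox7a2l were then called higher too. Without the 6 libraries that stood apart, the same 4 members were called lower, with log2 fold changes of -0.51 for Cox4i1, -1.05 for Cox7a1, -0.43 for Cox7a2 and -0.34 for Cox8b. Within strata, 4 members were called in hCYP2B6-Tg females (27.7% of all tested genes), 3 in hCYP2B6-Tg males (18.5%), 5 in Cyp2b-null females (12.7%) and 3 in Cyp2b-null males (15.8%). Cox4i1, Cox7a1 and Cox7a2 were called lower in every stratum; the others were Cox8b, lower in hCYP2B6-Tg females, and Cox7a2l, lower, with Cox8a, higher, in Cyp2b-null females. Several of these calls depend on the setting. Cox8b in hCYP2B6-Tg females was not called in 4 of 9 settings and without any 1 of 4 single libraries. Cox8a in Cyp2b-null females was not called in 2 of 9 settings and without any 1 of 7 single libraries. Cox7a2l in Cyp2b-null females was not called in 1 of 9 settings. With unscaled totals Cox4i1 was not called in hCYP2B6-Tg females, nor Cox7a2 in hCYP2B6-Tg males and Cyp2b-null females. Another setting took library sizes without mitochondrially encoded genes and the 20 most abundant genes, in short without the most abundant genes. There Cox7a2 was not called in hCYP2B6-Tg males. Without the 6 libraries Cox7a2 was not called in hCYP2B6-Tg males and Cyp2b-null females, nor Cox4i1 in Cyp2b-null males, nor was Cox4i1 without replicate 3 of the Cyp2b-null males at 10 mg/kg/day alone, where 2 members were left. Without replicate 3 of the hCYP2B6-Tg males at 10 mg/kg/day, 1 of the 3 members called in hCYP2B6-Tg males was left, Cox4i1, and without replicate 3 at 10 mg/kg/day or replicate 2 at 0 mg/kg/day of the Cyp2b-null females 3 of the 5 in Cyp2b-null females were left. The call of Cox6a1 was lost without the 6 libraries that stood apart (0.28), in limma voom (0.29), under the replicate block (0.33) and when any 1 of 14 single libraries was left out (0.26 to 0.35).

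The composition of each pair was read as a ratio within the library, which needs no scaling between libraries. Cox7a1 made up 46.2 ± 7.88% of the VIIa pair per kb at 10 mg/kg/day (SD, n = 15), with a range of 30.1 to 59.2%, against 59.8 ± 2.99% at 0 mg/kg/day (n = 17), with a range of 56.3 to 68.4%. The difference in log2 ratio, averaged over strata, was -0.81. By stratum it was -0.60 in hCYP2B6-Tg females, -0.74 in hCYP2B6-Tg males, -1.16 in Cyp2b-null females and -0.73 in Cyp2b-null males. Cox8b made up 91.5 ± 3.46% of the VIII pair at 10 mg/kg/day and 95.9 ± 0.769% at 0 mg/kg/day, with a difference in log2 ratio of -0.96. The 2 genes of that pair lay in opposite directions. Cox8a was highest in libraries rich in fat-cell RNA, with the exceptions described above. The part of fat cells in this ratio was not tested. Cox6a2 made up 96.6 ± 1.4% of the VIa pair at 10 mg/kg/day and 97.4 ± 0.442% at 0 mg/kg/day, with a difference of -0.25. By stratum that difference was -0.52 and -0.46 in hCYP2B6-Tg and Cyp2b-null females, and -0.11 and 0.085 in hCYP2B6-Tg and Cyp2b-null males. Cox4i2 made up 0.647 ± 0.194% of the subunit IV pair at 10 mg/kg/day and 0.560 ± 0.253% at 0 mg/kg/day. In the VIIa pair both members were called lower, Cox7a1 by more than Cox7a2, so that Cox7a1 was no longer the larger share per kb in most mice at 10 mg/kg/day. Which member is larger depends on the deposited gene lengths, 535 bases for Cox7a1 and 944 for Cox7a2. In counts without lengths, the log2 ratio of Cox7a1 to Cox7a2 averaged -0.24 at 0 mg/kg/day (-0.45 to 0.30) and -1.05 at 10 mg/kg/day (-2.04 to -0.28). The difference in log2 ratio between doses does not depend on length.

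**Figure D3:**
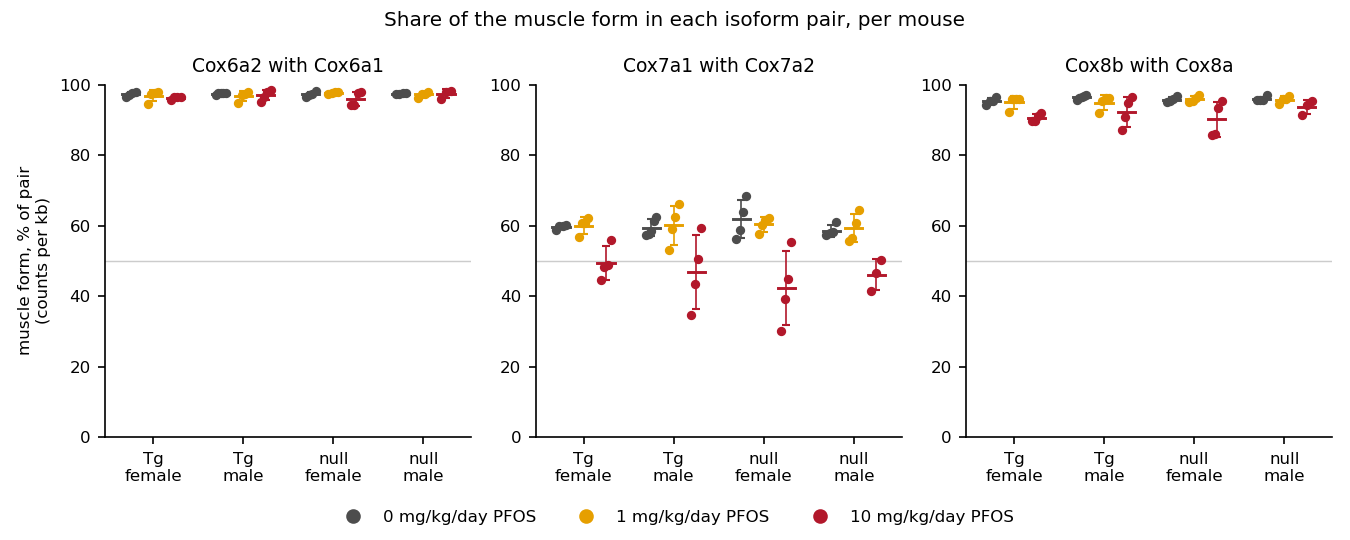
Each point is the muscle form's share of its pair in 1 mouse, in percent of counts per kb, with the group mean (line) and SD (bar), in hCYP2B6-Tg (Tg) and Cyp2b-null (null) mice at 0, 1 and 10 mg/kg/day; the grey line marks equal shares. Cox7a1 held 30.1 to 59.2% of its pair at 10 mg/kg/day and 56.3 to 68.4% at 0, and the other muscle forms stayed above 85% at all doses.

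Cox7a2l (ENSMUSG00000024248, chromosome 17, 83501919 to 83514333, minus strand) lay below every control of the stratum at 10 mg/kg/day in Cyp2b-null females. In hCYP2B6-Tg females every mouse lay below the control mean of 103.3 CPM, with overlap. In males of both lines Cox7a2l lay near or above the control mean. In Cyp2b-null females it had 86.1, 70.4, 76.2 and 95.5 CPM at 10 mg/kg/day, all below the 98.7, 113.2, 124.95 and 107.5 CPM at 0. In hCYP2B6-Tg females it had 102.9, 99.4, 93.5 and 86.2 CPM at 10 mg/kg/day and 102.7, 110.4, 98.6 and 101.6 CPM at 0. In hCYP2B6-Tg males it had 132.3, 119.2, 119.5 and 135.0 CPM at 10 mg/kg/day, at the upper end of the 111.8, 117.7, 96.3, 131.2 and 92.3 CPM at 0. In Cyp2b-null males it had 113.99, 111.2 and 107.7 CPM at 10 mg/kg/day and 104.1, 105.3, 114.6 and 115.5 CPM at 0. The log2 fold changes were -0.44 ± 0.09, -0.11 ± 0.09, 0.20 ± 0.08 and 0.014 ± 0.097 in the same order of strata. The effect in females minus that in males was -0.38 ± 0.09, and the effect in hCYP2B6-Tg minus that in Cyp2b-null mice was 0.26 ± 0.09. These differences come from the libraries that took part in the choice of the members, so they are given as values and nothing is read from them. No member was called for either difference, where 0.128% of all tested genes were called for the sexes and 0% for the genotypes (1378 genes at an unadjusted p under 0.05; edgeR). The lack of a call for the sexes depends on the setting: Cox7a2l was called with DESeq2, with limma voom, with library sizes without the most abundant genes, with a stricter filter, and when any 1 of 5 single libraries was left out. Among the other members the differences between the sexes ran from -0.24 ± 0.12 (Cox6a2) to 0.28 ± 0.27 (Cox8a), and those between the genotypes from -0.14 ± 0.37 (Cox4i2) to 0.40 ± 0.28 (Cox7a1).

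At 1 mg/kg/day no member passed against 0 mg/kg/day. The libraries at this dose took no part in the choice of the members. Averaged over strata, the log2 fold changes ran from -0.036 ± 0.044 (Cox7a2l) to 0.16 ± 0.14 (Cox6a1), and every adjusted p in edgeR was 1; 0% of all genes passed, and 578 had an unadjusted p under 0.05. DESeq2 and limma voom called no member either. Cox7a1 had 54.2 to 129.9 CPM at 1 mg/kg/day (median 87.8, n = 16), on both sides of the control median of 84.5, with a log2 fold change of -0.026 ± 0.13. Within strata no member passed, where the share of all genes that passed was 0.0128% in hCYP2B6-Tg males and 0% in the other strata. The lowest unadjusted p of a member was that of Cox8a in hCYP2B6-Tg males, at 0.0375 with a log2 fold change of 0.55 ± 0.26 (edgeR, adjusted p = 1). Its values there were 30.4, 21.1, 15.7 and 13.1 CPM at 1 mg/kg/day and 13.5, 12.1, 11.5, 17.6 and 13.7 CPM at 0, so the groups overlapped. The pair ratios did not pass at 1 mg/kg/day. Cox7a1 made up 59.9 ± 3.38% of its pair (SD, n = 16), and the difference in log2 ratio from 0 mg/kg/day was 0.0052 (two-sided permutation test within strata, p = 0.94). The difference was -0.12 for Cox8b with Cox8a (permutation p = 0.326), -0.11 for Cox6a2 with Cox6a1 (permutation p = 0.421) and 0.065 for Cox4i2 with Cox4i1 (permutation p = 0.751). Over the 12 ratio tests made at 1 mg/kg/day and between sexes and genotypes, the adjusted p was 0.913 or more.

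Neither sex nor genotype separated the isoforms without PFOS. Between females and males at 0 mg/kg/day no member passed, while 7.59% of all genes did. The largest differences were 0.18 ± 0.20 for Cox6a1 (edgeR, adjusted p = 0.67) and 0.12 ± 0.19 for Cox8a (edgeR, adjusted p = 0.776). Among the ratios, Cox8b to Cox8a came nearest, at 3.82 ± 0.27 in females and 4.07 ± 0.248 in males on the log2 scale (SD, n = 8 and 9; two-sided permutation test, p = 0.0811, adjusted p = 0.913). Between hCYP2B6-Tg and Cyp2b-null mice at 0 mg/kg/day no member passed and 0% of all genes did, with 535 at an unadjusted p under 0.05. The members' differences ran from -0.13 ± 0.20 for Cox6a1 to -0.046 ± 0.082 for Cox7a2, with an edgeR adjusted p of 1 for each.

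The rest of complex IV gives the frame for these isoforms. The 7 nuclear subunits that have no muscle form here, Cox5a, Cox5b, Cox6b1, Cox6c, Cox7b, Cox7c and Ndufa4, were all called lower in animals of the high dose, where 22.5% of all tested genes were, with log2 fold changes from -0.67 ± 0.07 (Cox5a, which binds Cox4) to -0.45 ± 0.07 (Ndufa4) and a median of -0.54. Their transcripts summed to 874 to 1395 CPM at 10 mg/kg/day and 1311 to 2117 CPM at 0 mg/kg/day. Among the core subunits, mt-Co1, which carries the oxygen-reducing centre, had -0.70 ± 0.07, mt-Co2, which accepts electrons from cytochrome c, had -1.12 ± 0.15, and mt-Co3 had -1.24 ± 0.19. Cox4i1, Cox7a2 and Cox8b lay within or near the range of the 7 nuclear subunits. Cox7a1 lay below it, and Cox6a2, Cox7a2l, Cox6a1 and Cox8a lay above it; no test was made between genes. At 1 mg/kg/day none of these 10 genes passed.

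**Figure D4:**
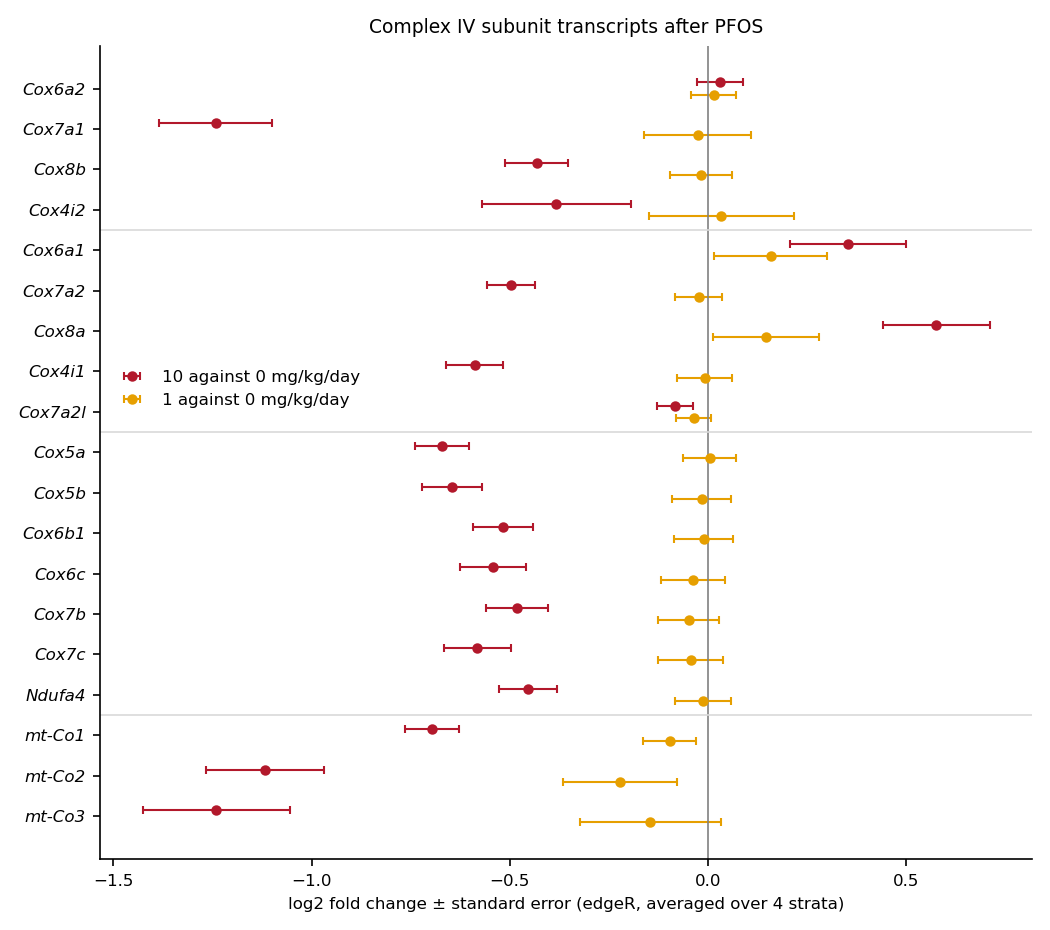
Points are log2 fold changes and bars standard errors, averaged over 4 strata, for 10 (red) and 1 mg/kg/day (yellow) against 0, with gene blocks from top to bottom for tissue-restricted forms, ubiquitous forms with Cox7a2l, other nuclear subunits and mitochondrially encoded subunits. At 10 mg/kg/day Cox7a1 stands at -1.24, the 7 other nuclear subunits at -0.67 to -0.45, and Cox6a1 and Cox8a at 0.35 and 0.58.

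Of 14 transcription regulators of mitochondrial and muscle genes, 2 were called higher and 6 lower at 10 against 0 mg/kg/day, with a median of -0.23, where 25% of all tested genes were called higher and 22.5% lower. The lower ones included Esrra, an orphan receptor that drives respiratory chain genes (-0.86 ± 0.08), Esrrg (-0.71 ± 0.25) and Mef2c, a muscle factor (-0.70 ± 0.10). The higher ones, named after their values were seen, were Nrf1 (0.49 ± 0.07) and Yy1 (0.25 ± 0.05). Fast fibre genes were called lower in 6 and higher in 2 of 10, with a median of -0.37, and none of 7 slow fibre genes was called in the averaged contrast, with sums of 180.6 to 6192 CPM at 10 mg/kg/day and 35.6 to 6533 CPM at 0 mg/kg/day. By stratum, 2 of 7 slow fibre genes were called higher in hCYP2B6-Tg males (7.92% of all tested genes), with a median of 2.91. In Cyp2b-null males none was called and the median was -2.19. In hCYP2B6-Tg and Cyp2b-null females none was called either, with medians of 0.824 and 0.92. No slow fibre gene was called for the difference between the genotypes or the sexes in the effect of 10 mg/kg/day. The part of fibre make-up in the isoform values was not tested.

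Genes with the most similar pattern over the 48 libraries were sought among 7819 genes by the Pearson r of log2 CPM, as a description, since the libraries share scaling and the PFOS contrast. Cox7a1 was most like Atp5j2 (0.97), an ATP synthase subunit, Ndufa9 (0.97), a complex I subunit, and Idh3b (0.96), a subunit of a citrate cycle enzyme. Cox4i1 was most like Cox5b, Atp5g3 and Cox6b1 (0.96 to 0.97), Cox7a2 most like Ndufb9, Ndufv2 and Atp5h (0.92 to 0.94), and Cox8b most like Ndufa4, Uqcr10 and Ndufv2 (0.92 to 0.94). Cox6a2 had weaker neighbours in Etfb, Ndufa7 and Fmc1 (0.65 to 0.67), and so had Cox7a2l in Oxa1l, Pla2g16 and mt-Rnr2 (0.73 to 0.74). Cox6a1 was most like Agpat2, Lipe and Gstz1 (0.80 to 0.82) and Cox8a most like Agpat2, Csad and Lipe (0.82 to 0.86); Agpat2 makes a precursor of triglycerides and Lipe is the hormone-sensitive lipase of fat cells. Cox4i2 reached only 0.52 to 0.57, with Jam2, Alpl and Mlxipl. With group means removed, Cox6a2 had an r of 0.85 with Cox8b, 0.82 with Cox7a2, 0.74 with Cox4i1 and 0.70 with Cox7a1, against 0.47, 0.34, 0.33 and 0.26 over all libraries. Its r with Cox7a2l was 0.49, and it did not follow Cox6a1 (-0.18), Cox8a (-0.11) or Cox4i2 (0.020).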

How the data were processed

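Raw counts of reads per gene, as deposited by the authors, came as 1 table for 48 libraries of mouse gastrocnemius, with gene lengths and GRCm38 coordinates. Per the submitters' processing notes, HISAT2 and the build GRCm39 are listed, with no version or role stated. How reads were counted, and whether strand was used, is not given in the sources used here, so reads shared with overlapping or near-identical genes cannot be told apart. All columns were matched to samples by name. Total counts ran from 11571142 to 19921061, and 73 pairs of mice within groups differed by more than counting error (lowest chi-square per degree of freedom 7.85).

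Counts were filtered with filterByExpr of edgeR 4.0.16 in R 4.3.3 (15583 genes kept), scaled by TMM and fitted with 1 coefficient per group (12 groups, 36 residual degrees of freedom). Quasi-likelihood tests were two-sided, with Benjamini-Hochberg adjustment over all tested genes and a threshold of 0.05; "called" means past it. CPM use TMM-scaled sizes. The fit was tested on simulated data. Pair ratios are log2 of counts + 0.5 within a library, with 100000 permutations within strata, adjusted over 12 tests. The members, all named, and the lists were chosen with earlier results of these data known; from other lists up to 3 members that passed with the largest change are named, as are all complex IV subunits and, for each member the 3 genes with the highest r (average log2 CPM at least 3). Nrf1, Yy1, Lonp1, Hif1a, Myh11, Rgs5, Higd1b, Ucp1 and Elovl3 were named after their values were seen. Alternatives were DESeq2 1.42.0, limma 3.58.1 voom, other scalings and filters, the replicate number as a block, and leaving out libraries.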

Additional observations from a re-analysis of the deposited data

Results flagged for a closer look

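In a scan over the members and pairs of strata, Cox7a2l was picked because all mice of different strata lay on opposite sides of their control means. At 10 mg/kg/day every Cyp2b-null female lay below the mean of its controls, with a mean difference of -29.1 CPM, while every hCYP2B6-Tg male lay above, with a mean difference of 16.6 CPM; the gap between both was -45.7 CPM. The same held for hCYP2B6-Tg females, whose mean difference of -7.87 CPM was -24.5 CPM from that of hCYP2B6-Tg males. These contrasts between single strata were not tested, and the averaged difference of the sexes was not called in edgeR. The libraries behind these contrasts took part in the choice of the members. The share of all tested genes that meet the same rule is not given. The contrasts are therefore listed as values, and nothing is read from them.

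In 99 member and group combinations of 4 or 5 mice, 10 held a mouse far from the rest; chance flags about 1 in 20 of such groups, and the combinations share mice and so are not independent. At 10 mg/kg/day, hCYP2B6-Tg female replicate 3 had 51.7 CPM of Cox7a1 (others at most 35.7) and 30.4 CPM of Cox6a1 (others at most 19.6). At the same dose, hCYP2B6-Tg male replicate 3 had 0.82 CPM of Cox4i2 (others at least 1.53) and Cyp2b-null female replicate 3 had 67.9 CPM of Cox7a2 (others at least 80.0). At 1 mg/kg/day, hCYP2B6-Tg female replicate 1 had 25.2 CPM of Cox8a (others at most 14.5), and Cyp2b-null female replicate 3 had 87.6 CPM of Cox7a2 (others at least 99.7) and 98.0 CPM of Cox7a2l (others at least 107.5). At 0 mg/kg/day, Cyp2b-null male replicate 3 had 655.2 CPM of Cox4i1 (others at most 502.8) and 18.5 CPM of Cox6a1 (others at most 14.5), and Cyp2b-null female replicate 3 had 12.9 CPM of Cox6a1 (others at least 19.2).

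Isoforms known from testis had their highest counts in 1 library, hCYP2B6-Tg male replicate 4 at 1 mg/kg/day, with 38 counts of Cox8c, 12 of Cox7b2 and 37 of Cox6b2. At 1 mg/kg/day Cox8c and Cox7b2 were each at 0 in 14 of 16 libraries. At 10 mg/kg/day Cox8c was at 0 in 14 of 15 libraries, with at most 1 count, Cox7b2 in 15 of 15, and Cox6b2 had at most 11 counts. At 0 mg/kg/day both Cox8c and Cox7b2 were at 0 in 17 of 17 libraries, and Cox6b2, at a median of 3 counts, had at most 7.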

How the results depend on the processing

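The 4 calls of lower members, averaged over strata, held under all 9 settings and became 5 without replicate 4 of the Cyp2b-null females at 10 mg/kg/day, which added Cox7a2l (-0.10); left-out libraries gave 4 to 5. Unscaled library totals moved the median of all genes by 0.219, to 0.255, and the calls to 82% higher against 52.6%; Cox6a2 (0.25) and Cox7a2l (0.14) were then called higher, making 4 called higher, but relative to that median they lay at -0.0084 and -0.12, and Cox7a1 at -1.3. With library sizes without mitochondrially encoded genes and the 20 most abundant genes, 67% of calls were higher. Members called higher numbered 1, with Cox6a1 lost, under the replicate block (0.33), limma voom (0.29) and without the 6 libraries that stood apart (0.28). Left-out libraries gave 1 to 2: at 10 mg/kg/day Cox6a1 was lost without hCYP2B6-Tg female replicate 3, hCYP2B6-Tg male replicates 2 and 3, Cyp2b-null female replicates 1 and 3 or Cyp2b-null male replicate 3, and at 0 mg/kg/day without hCYP2B6-Tg female replicates 1 and 2, hCYP2B6-Tg male replicates 2 and 3, Cyp2b-null female replicate 3 or Cyp2b-null male replicates 1, 2 and 4, each alone (0.26 to 0.35). In hCYP2B6-Tg males 5 members were called in place of 3 with unscaled totals, without the most abundant genes and in DESeq2, and 1 to 5 with left-out libraries. In Cyp2b-null females 3 were called in place of 5 with unscaled totals and without the 6 libraries, and 3 to 6 with left-out libraries. For the sexes 1 member, Cox7a2l, was called in place of 0 without the most abundant genes, with the stricter filter, in DESeq2 and in voom, and 0 to 1 with left-out libraries (called without, at 10 mg/kg/day, Cyp2b-null female replicates 1 or 4 or hCYP2B6-Tg female replicate 2, or, at 0 mg/kg/day, Cyp2b-null female replicate 1 or hCYP2B6-Tg male replicate 4). The cause of these changes was not tested.

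No member was called at 1 mg/kg/day, for the genotypes or for sexes at 0 mg/kg/day under any setting or left-out library. Values near 0 changed sign at 1 against 0 mg/kg/day: Cox4i1 (0.0079 unscaled, 0.0036 without abundant genes, 0.024 in voom), Cox7a1 (0.013 in voom) and Cox8b (0.0022 unscaled, 0.0059 in voom). Left-out libraries gave -0.030 to 0.019 for Cox4i1, -0.021 to 0.19 for Cox4i2, -0.0050 to 0.045 for Cox6a2, -0.066 to 0.036 for Cox7a1 and -0.042 to 0.0070 for Cox8b. Log2 ratios that changed sign, none past the threshold, ran at 1 against 0 mg/kg/day from -0.025 to 0.040 (Cox7a1 to Cox7a2) and -0.020 to 0.18 (Cox4i2 to Cox4i1). For females against males at 0 mg/kg/day they ran from -0.25 to 0.14 (Cox4i2 to Cox4i1) and -0.14 to 0.024 (Cox6a2 to Cox6a1, 0.024 also without the 6 libraries). For hCYP2B6-Tg against Cyp2b-null they ran from -0.049 to 0.34 (Cox4i2 to Cox4i1), -0.034 to 0.12 (Cox6a2 to Cox6a1), -0.097 to 0.028 (Cox7a1 to Cox7a2) and -0.033 to 0.096 (Cox8b to Cox8a). Deviations of mice with the same number in different groups had a median r of -0.023 (253 pairs, -0.498 to 0.527). For other numbers the median was 0.0128 (802 pairs, -0.593 to 0.564). The labels do not say that equal numbers share a batch, so these values cannot show whether there was one. Beside Cox6a1 the replicate block moved no other averaged call. Depth limits Cox4i2 most, at 8 to 52 counts per library.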
